A study of Homo sapiens with 6 samples.

Results

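RUNX2, MSX2, SPP1, BGLAP, PHEX and TNFRSF11B are genes of the osteoblast, the cell that lays down bone. They were taken by symbol from the 13439 genes of an RNA-seq table of cells labelled Saos-2, an established human osteosarcoma line, and all 6 were listed. The 3 AIL libraries came from cells given 0.20 µM ailanthone (AIL), a quassinoid of the tree Ailanthus altissima, for 24 h, the dose the labels call the IC50, and the 3 control libraries from cells given DMSO, its solvent, for the same time. All cells grew in DMEM with serum, penicillin and streptomycin. The study asked which pathways AIL alters in this line. The line is the only model here, the labels call the replicates biological without saying how the cultures were kept apart, and p-values measure the spread between these 6 libraries, which may be technical.

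Osteoblasts arise from mesenchymal precursors under RUNX2, a transcription factor that binds DNA with its partner CBFB and is needed for bone to form. Early osteoblasts make collagen and alkaline phosphatase, and mature cells add the mineral-binding matrix proteins osteopontin (SPP1) and osteocalcin (BGLAP). They also set the number of bone-resorbing osteoclasts through osteoprotegerin (TNFRSF11B), a secreted decoy receptor that keeps the ligand RANKL from its receptor RANK. Saos-2 is widely used as an osteoblast-like line because its cells are known to make alkaline phosphatase and to mineralise.

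The promoters of BGLAP and SPP1 are textbook sites of RUNX2 action, and the distal promoter of RUNX2 itself is known to hold RUNX sites. These 3 windows are shown because each held the RUNX core searched for, so the marked letters follow from that choice. The sequences are from RefSeq on build GRCh38.p14, plus strand, and run over the 250 bases before the annotated start. Of the 6 genes, 4 had an entry, with 5 starts in all because RUNX2 has a distal and a proximal one. Capitals mark the RUNX core, searched as TGTGGT and its reverse complement ACCACA. The windows are chr1:156241934-156242183 for BGLAP, chr4:87975464-87975713 for SPP1 and chr6:45328080-45328329 for the distal start of RUNX2.
BGLAP: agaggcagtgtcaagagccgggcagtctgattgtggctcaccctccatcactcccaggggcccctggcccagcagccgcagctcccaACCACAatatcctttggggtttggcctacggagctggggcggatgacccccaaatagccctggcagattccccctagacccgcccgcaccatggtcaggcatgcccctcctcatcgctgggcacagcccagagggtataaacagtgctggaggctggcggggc
SPP1: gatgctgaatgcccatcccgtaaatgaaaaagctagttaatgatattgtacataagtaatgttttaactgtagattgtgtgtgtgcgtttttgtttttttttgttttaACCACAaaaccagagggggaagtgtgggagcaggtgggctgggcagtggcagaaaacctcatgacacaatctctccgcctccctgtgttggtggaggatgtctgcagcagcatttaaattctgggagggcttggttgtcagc
RUNX2 distal: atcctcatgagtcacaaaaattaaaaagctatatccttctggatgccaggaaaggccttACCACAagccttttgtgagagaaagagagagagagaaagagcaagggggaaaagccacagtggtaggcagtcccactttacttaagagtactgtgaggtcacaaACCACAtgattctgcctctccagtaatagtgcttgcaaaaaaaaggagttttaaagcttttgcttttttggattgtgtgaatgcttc
The core began 163 bases before the start in BGLAP, 142 bases before it in SPP1, and 191 and 87 bases before it at the distal start of RUNX2. It was not found in the windows of MSX2 or the proximal start of RUNX2. Of 35116 RefSeq starts, 3855 had this core in the same window, so a match describes the letters and no more. The MSX homeobox core (TAATTG or CAATTA, in 6.70% of starts) was in none of the 5 windows, and the AP-1 motif TGANTCA (in 6.57%) was in the distal RUNX2 window alone, 243 bases before the start.

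Values are TMM-normalized CPM, read counts scaled to a common library size, and 1 read was worth 0.0263 to 0.0307 CPM, so the scaled libraries held 32540000 to 38050000 reads. Summed over listed genes, a library reached 84.4 to 87.2% of its scaled total. Osteoblast genes were low or unlisted in these libraries. Of 9 osteoblast markers set for this check, 4 (RUNX2, SPP1, BGLAP and SPARC) were listed and only RUNX2 had a mean of 1 CPM or more. ALPL (alkaline phosphatase), SP7 (the factor osterix), IBSP (bone sialoprotein) and COL1A1 (the main chain of type I collagen) were not listed, and neither was COL1A2. Genes with no value above 0.03 CPM, about 1 read, were listed, but an unlisted gene has no value here and cannot be read as 0. SPARC, the matrix protein osteonectin, ranged from 0.12 to 0.28 CPM. The low values of SPP1, BGLAP and SPARC go against an osteoblast-like label. The 5 unlisted markers have no level here and cannot speak to it. The genes are therefore called by name in what follows. The identity of the line rests on the labels and was not tested, so each value is that of the libraries labelled Saos-2.

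Markers of other cell types were mostly unlisted, which gives no level, or listed at low values. Over the 6 libraries CAPG (mean 23.0 CPM) and SOX9 (8.60 CPM) lay above RUNX2 (4.69 CPM), the highest listed osteoblast marker. TNFRSF11A (3.96 CPM) and PPARG (3.54 CPM) lay not far below it. Of 13 chondrocyte markers 4 were listed, with a summed level of 12.5 to 14.0 CPM under DMSO and 8.72 to 10.7 CPM under AIL, most of it SOX9, while COL2A1 and ACAN were not listed. The 5 listed of 9 adipocyte markers summed to 4.6 to 5.01 and 3.87 to 4.32 CPM, the 3 of 8 muscle markers to 0.82 to 0.95 and 0.79 to 1.09 CPM, and the 2 of 6 endothelial markers to 0.03 to 0.15 and 0.14 to 0.24 CPM. Of 11 osteoclast and macrophage markers 5 were listed, and their sum went from 6.3 to 7.02 CPM up to 7.54 to 8.7 CPM. That shift was carried by CD68, a lysosomal protein of macrophages and other cells, at 0.73 to 0.79 CPM under DMSO and 2.48 to 3.26 CPM under AIL, whereas PTPRC, CSF1R and CD14 were not listed. Of 8 osteocyte markers only PHEX and CAPG were listed, with a sum of 22.86 to 25.45 CPM under DMSO and 21.19 to 23.05 CPM under AIL. Nearly all of it was CAPG, an actin-capping protein also made by macrophages and other cells, while SOST, DMP1 and MEPE were not listed.

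RUNX2 was one of the 2 members that reached the minimum mean of 1 CPM, and its groups were not told apart by the test. It stood at 4.95, 4.36 and 4.66 CPM in DMSO replicates 1, 2 and 3 and at 4.65, 4.48 and 5.04 CPM in the AIL replicates, about 144 to 181 reads a library. The groups overlapped throughout, with the lowest library under DMSO and the highest under AIL. The means were 4.66 ± 0.295 and 4.72 ± 0.287 CPM (SD, n = 3). On the log2(CPM + 1) scale the AIL mean lay above the DMSO mean by 0.017, with a 95% interval of -0.15 to 0.18 (limma adjusted p = 0.868). The interval leaves room for a change of either sign within those bounds. The sign turned with quantile normalization (-0.025) and without DMSO replicate 2 (-0.021) or AIL replicate 3 (-0.022). In bulk RNA, fewer cells making a transcript and less of it in each cell cannot be told apart.

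MSX2, a homeobox factor of skull and limb bone, was below the minimum mean of 1 CPM for the test. Its values were 0.65, 0.91 and 0.56 CPM under DMSO and 0.76, 0.91 and 0.64 CPM under AIL, about 20 to 33 reads a library. The highest value was the same in both groups and the groups overlapped. The means were 0.707 ± 0.182 and 0.77 ± 0.135 CPM (SD, n = 3), and an exact two-sided permutation test gave p = 0.8, where 3 libraries against 3 cannot go below 0.1. A fit of all listed genes without the minimum gave a difference of 0.055 on the log2(CPM + 1) scale, with a 95% interval of -0.13 to 0.24 (limma adjusted p = 0.647). That difference was 0.14 without DMSO replicate 2 and turned to -0.0071 without DMSO replicate 3, and it was also just below 0 without AIL replicate 2. Its relative MSX1, looked up after its values were seen, passed the minimum with 2.49 ± 0.428 CPM under DMSO and 2.22 ± 0.189 CPM under AIL (limma adjusted p = 0.390).

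Of the matrix genes, SPP1 encodes osteopontin, an acidic phosphoprotein whose RGD motif is bound by integrins. It was listed at 0.18, 0.21 and 0.28 CPM under DMSO and at 0.11, 0.17 and 0.22 CPM under AIL. These values stand for 23 and 18 reads summed over the 3 libraries of each group, and the groups overlapped. The exact two-sided permutation test gave p = 0.3 (n = 3 in each group), and the fit without the minimum a difference of -0.069 with a 95% interval of -0.20 to 0.062 (limma adjusted p = 0.392). Without DMSO replicate 3 or AIL replicate 1 that difference was -0.036 and -0.033.

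BGLAP, the vitamin K-dependent matrix protein osteocalcin, was at the limit of detection. Under DMSO it was at 0.03 CPM in replicate 1, which is 1 read, and at 0 in replicates 2 and 3. Under AIL it was at 0.16, 0.06 and 0.03 CPM, or 6, 2 and 1 reads. A count of 0 allows up to 3 reads, which is 0.0788 to 0.0922 CPM across the 6 libraries, so AIL replicate 1 alone was above that limit and no fold is given. The exact two-sided permutation p was 0.2 (n = 3 in each group), and the fit without the minimum gave a difference of 0.099 with a 95% interval of -0.029 to 0.23 (limma adjusted p = 0.196), or 0.049 without AIL replicate 1. A difference was not detectable at this depth.

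The BGLAP locus carries a further limit. A read-through gene, PMF1-BGLAP, joins its exons to those of the upstream kinetochore gene PMF1, and 28.8% of the 50-base words in the GENCODE 29 transcripts of BGLAP also occur in PMF1-BGLAP. Reads from these words can be counted for either gene. The table listed PMF1-BGLAP at 1.72 to 2.78 CPM under DMSO and 1.84 to 2.35 CPM under AIL, about 56 to 92 reads a library. Its groups overlapped (limma adjusted p = 0.621), and 85.6% of its words occur in other genes. PMF1 was at 30.8 ± 0.548 CPM under DMSO and 29.4 ± 0.678 CPM under AIL (limma adjusted p = 0.199; SD, n = 3). Of the other members, RUNX2, SPP1 and PHEX shared no such word with another gene, TNFRSF11B shared 0.425% and MSX2 2.64%.

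PHEX, a membrane endopeptidase whose loss causes X-linked low blood phosphate, is found in osteoblasts and osteocytes. Its values were 0.18, 0.39 and 0.25 CPM under DMSO and 0.21, 0.25 and 0.14 CPM under AIL, or 28 and 22 reads per group in all. DMSO replicate 2 was the highest and AIL replicate 3 the lowest, and the groups overlapped. The exact two-sided permutation p was 0.5 (n = 3 in each group), and the fit without the minimum gave -0.083 with a 95% interval of -0.24 to 0.070 (limma adjusted p = 0.373). Single libraries moved that difference, to -0.018 without DMSO replicate 2, to -0.047 without AIL replicate 3 and to -0.14 without DMSO replicate 1.

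TNFRSF11B was the one member that passed the test. It was at 2.15, 2.18 and 1.59 CPM in the DMSO libraries and at 1.31, 1.49 and 1.28 CPM in the AIL libraries, or 199 and 150 reads per group. Each AIL library was below each DMSO library, although DMSO replicate 3 and AIL replicate 2 lay close together. The mean went from 1.97 ± 0.332 to 1.36 ± 0.114 CPM (SD, n = 3), a change of -31.1%. The log2 difference was -0.33 with a standard error of 0.105 and a 95% interval of -0.55 to -0.11 (limma adjusted p = 0.0142). The exact two-sided permutation p was 0.1, the smallest that 3 libraries against 3 allow. The call rested on both of the higher DMSO libraries, since the adjusted p was 0.0623 without DMSO replicate 1 and 0.0704 without DMSO replicate 2, with differences of -0.28 in both cases. Of the 6 members, 1 was thus lower and 0 were higher, among the 2 that reached the minimum. Over all 11069 genes tested, 54.1% were called, 28.2% higher and 25.9% lower, and 60.1% had groups with no overlap. A share of 1 in 2 is near that background and is no result about the set.

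**Figure D1:**
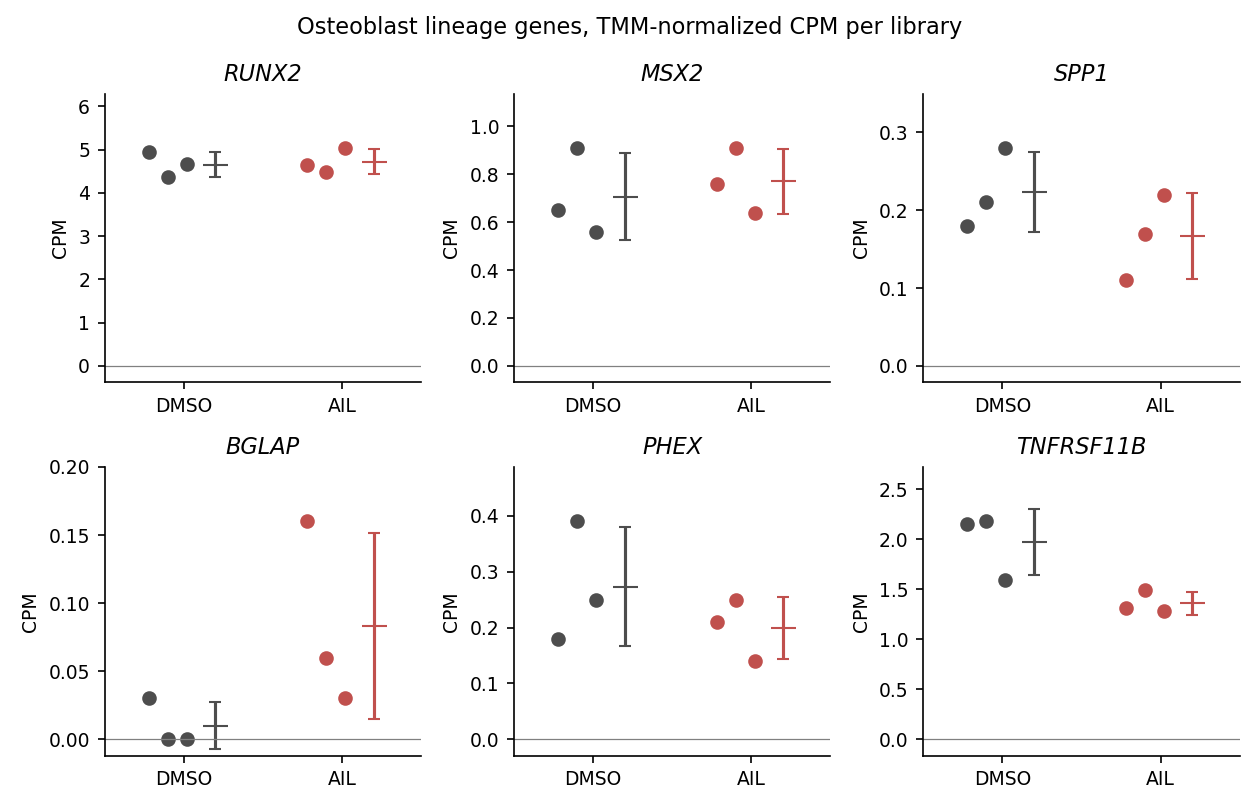
TMM-normalized CPM of the 6 genes in each library (y axis, own scale per panel), with DMSO in grey and AIL in red, 1 point per library and the mean with its SD beside the points (n = 3). The groups overlap in each panel other than that of TNFRSF11B, whose AIL libraries lie between 1.28 and 1.49 CPM.

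**Figure D2:**
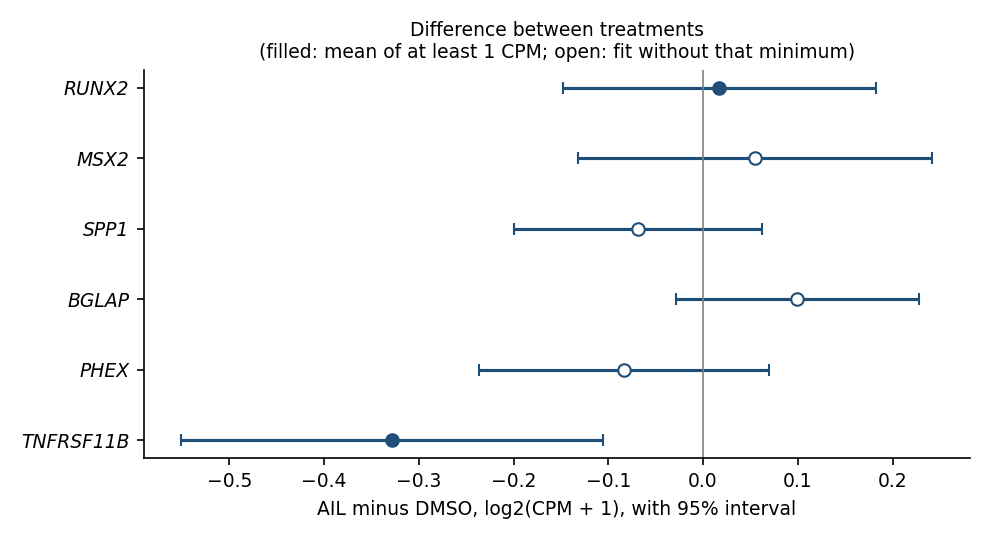
Difference between AIL and DMSO for each gene (x axis, log2(CPM + 1)) with its 95% interval. Filled points come from the fit with the minimum of 1 CPM and open points from the fit without it, and the interval of TNFRSF11B, -0.55 to -0.11, is the only one that does not reach 0.

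The members' levels were compared with each other per kilobase of the longest coding transcript in GENCODE 29, which may not be the annotation the authors used. Under DMSO the order on this scale was TNFRSF11B (0.822 ± 0.138 CPM per kilobase), RUNX2 (0.817 ± 0.0518), MSX2 (0.315 ± 0.0811), SPP1 (0.141 ± 0.0325), PHEX (0.0443 ± 0.0173) and BGLAP (0.0137 ± 0.0237; SD, n = 3). TNFRSF11B and RUNX2 were within their spread of each other, as were PHEX and BGLAP. Under AIL, RUNX2 came first at 0.829 ± 0.0504 CPM per kilobase, and TNFRSF11B followed at 0.566 ± 0.0473. MSX2 was next at 0.344 ± 0.0604, and the spread of BGLAP (0.114 ± 0.093) took in the means of both SPP1 (0.105 ± 0.0348) and PHEX (0.0324 ± 0.00902).

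**Figure D3:**
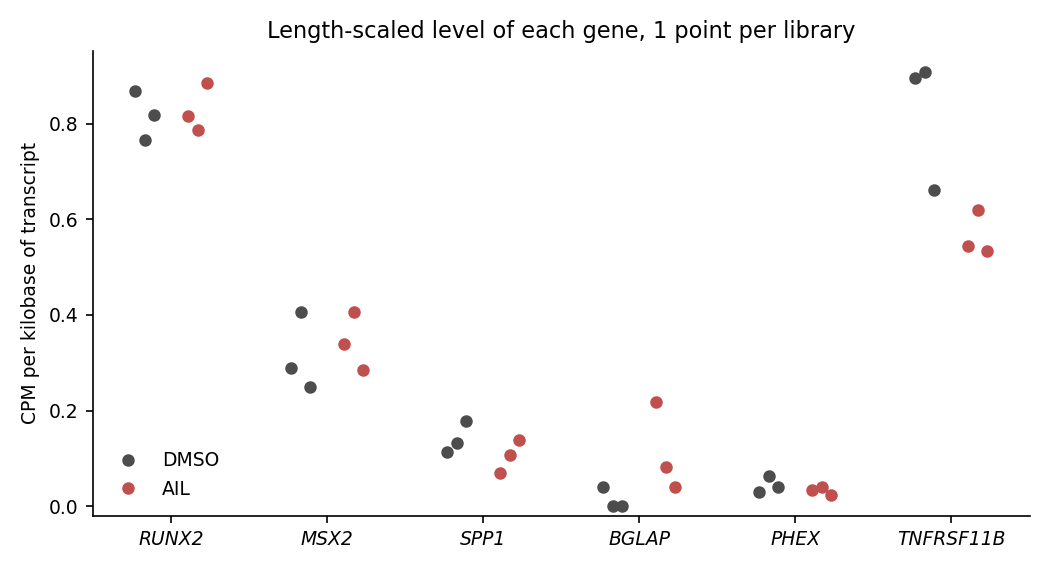
Level of each gene divided by the length of its longest coding transcript (y axis, CPM per kilobase), with 1 point per library, DMSO in grey and AIL in red. RUNX2 and TNFRSF11B are the highest, and under AIL the points of TNFRSF11B lie below those of RUNX2.

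For the 2 members tested, the genes with the most similar profile over the 6 libraries were looked up as a description. RUNX2 was nearest to KIAA1549 and ELF2 (Pearson r of 0.989 and 0.982 on the log2(CPM + 1) scale), and none of these 3 genes was called. TNFRSF11B was nearest to PARP12 and PIK3R2 (r of 0.992 and 0.99), of which PIK3R2 fell (log2 difference -0.24, limma adjusted p = 0.00103) and PARP12 missed the threshold (-0.098, limma adjusted p = 0.0536) but passed it with the replicate number as a block (adjusted p = 0.0300). In each case these were the 2 highest r of all tested genes, over 6 libraries that share 1 contrast of 2 treatments.

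Genes around the members were read from lists by role, with the share called over all genes (54.1%) as the background and a median log2 difference of 0.0083 over all 11069 tested. Of 13 mitochondrially encoded transcripts, looked up beside the lists, 10 were lower and 0 higher in the same comparison (median -0.20, summed level 4205 to 4374 CPM under DMSO and 3600 to 3726 CPM under AIL). Whether RNA quality or AIL lay behind this was not tested, and no RNA integrity values were at hand. The part of these transcripts in the changes of the lists was not tested.

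RUNX2 acts with other RUNX proteins, DNA-binding partners, corepressors and ligases. Of 17 RUNX family genes and partners 15 were tested, 4 rose, 5 fell and 6, RUNX2 and RUNX1 among them, did not pass (median 0.017). CBFB, the subunit that stabilises RUNX proteins on DNA, fell from 189.1, 192.8 and 197.9 CPM to 163.2, 165 and 164.7 CPM (log2 difference -0.23, SE 0.0265, limma adjusted p = 1.16e-06). The ubiquitin ligase WWP1, reported to act on RUNX2, fell by 0.47 on the log2 scale, and the ligase NEDD4 rose by 0.22. HDAC4, a deacetylase that represses RUNX2, rose from 11.1 ± 0.160 to 13.9 ± 0.658 CPM (limma adjusted p = 2.93e-04), and the corepressor TLE2 fell from 2.86 ± 0.199 to 1.66 ± 0.376 CPM (limma adjusted p = 3.32e-04; SD, n = 3). Without DMSO replicate 3 the count of lower genes was 3. RUNX1, singled out after its values were seen, was at 16.65, 15.95 and 15.38 CPM under DMSO and 13.69, 14.43 and 16.71 CPM under AIL (limma adjusted p = 0.230) and was called lower without AIL replicate 3.

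Of 31 osteoblast transcription factors 22 were listed and 18 tested, of which 3 rose, 6 fell and 9 did not pass (median -0.067). ATF4, which drives amino acid import and osteocalcin synthesis in osteoblasts and also the stress response, rose by 0.51 on the log2 scale (limma adjusted p = 9.88e-11). WWTR1, the coactivator TAZ, fell from 104.6 ± 1.69 to 82.2 ± 2.83 CPM (limma adjusted p = 9.92e-08). SOX9, the chondrocyte factor that opposes RUNX2, fell from 10.72, 10.35 and 9.85 CPM to 8.2, 5.94 and 6.52 CPM (log2 difference -0.53, SE 0.0865, limma adjusted p = 5.99e-05), with no overlap. DLX3, DLX5, DLX6, TWIST1, TWIST2 and SP7 were not listed.

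Of 25 bone matrix genes 10 were listed and 5 tested, of which COL5A2 and THBS1 fell and FBN1 rose. COL5A2, a chain of the fibril-forming type V collagen, went from 53.1 ± 1.36 to 36.5 ± 1.83 CPM (limma adjusted p = 1.32e-08; SD, n = 3). THBS1, thrombospondin, fell by 0.30 (log2) and FBN1, fibrillin, rose by 0.23, while TNC was at 13.9 ± 0.677 and 12.8 ± 0.280 CPM (limma adjusted p = 0.120) and was called lower with quantile normalization (-0.15, adjusted p = 0.0273). Without DMSO replicate 3, 2 genes were higher. Of 18 genes that modify, fold or trim collagen 14 were tested, 4 rose and 7 fell (median -0.080). PLOD1, which hydroxylates lysines of the collagen helix, fell from 127.6, 133.9 and 128.1 CPM to 77.6, 76.3 and 74.8 CPM (log2 difference -0.76, SE 0.0305, limma adjusted p = 4.82e-12), the lowest log2 difference in the lists by role. PLOD2, which acts on the telopeptides, rose from 629.3 ± 3.95 to 789.6 ± 8.61 CPM (limma adjusted p = 4.46e-09). LEPRE1, a prolyl 3-hydroxylase, fell by 0.32 and FKBP10, a collagen chaperone, rose by 0.20 on the log2 scale.

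In the list for mineral and phosphate, which holds PHEX, 9 of 18 genes were tested, 2 rose, 6 fell and 1 did not pass (median -0.15). SLC20A1, the phosphate importer PIT1, fell from 770.5, 753.4 and 769.7 CPM to 531.4, 526 and 524.9 CPM (log2 difference -0.53, SE 0.0234, limma adjusted p = 1.53e-11). All 3 AIL libraries were well below the lowest DMSO library. ANXA6, an annexin of matrix vesicles, fell by 0.43 and ANXA2 rose by 0.34 on the log2 scale. STC2, a secreted glycoprotein linked to phosphate handling and to stress, rose from 59.5 ± 0.813 to 87.5 ± 2.07 CPM (limma adjusted p = 3.64e-10). PHOSPHO1, a phosphatase of matrix vesicles, was listed at 0 to 0.12 CPM.

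TNFRSF11B acts in the RANK and TRAIL axis, since osteoprotegerin binds both RANKL and TRAIL. RANKL itself (TNFSF11) was not listed, and TRAIL (TNFSF10) was at 0 to 0.03 CPM. The receptor RANK (TNFRSF11A), added after its values were seen, was at 3.9, 4.42 and 4.41 CPM under DMSO and 3.78, 3.79 and 3.45 CPM under AIL. Its groups did not overlap, but the difference of -0.17 missed the threshold (limma adjusted p = 0.0958), and it was called with quantile normalization (-0.21, adjusted p = 0.0331) and without an intensity trend (adjusted p = 0.0317). Of 6 genes tested in this axis 4 fell and 1 rose (median -0.17). Beside TNFRSF11B, the TRAIL receptor genes TNFRSF10A, TNFRSF10B and TNFRSF10D fell by 0.15, 0.17 and 0.18 (log2). The decoy receptor TNFRSF10C was higher, at 1.03 ± 0.150 and 1.5 ± 0.328 CPM (limma adjusted p = 0.0396), a call lost in 6 alternatives: a pseudocount of 5 (adjusted p = 0.0537), quantile normalization (0.0997), and leaving out DMSO replicate 1 (0.147), DMSO replicate 2 (0.0536), AIL replicate 1 (0.0684) or AIL replicate 2 (0.200).

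Of 14 regulators of osteoclasts 8 were tested, 1 rose and 3 fell (median -0.096). IL6, a cytokine that favours resorption, rose from 46.7, 47 and 47.5 CPM to 70.4, 70.8 and 67.2 CPM (log2 difference 0.55, SE 0.0341, limma adjusted p = 7.93e-10). CSF1, the growth factor of osteoclast precursors, fell from 6.41 ± 0.655 to 5.30 ± 0.0586 CPM (limma adjusted p = 0.0185; SD, n = 3), and LIF from 229.5 ± 7.78 to 210.6 ± 9.91 CPM (limma adjusted p = 0.00488). The call of CSF1 was lost without DMSO replicate 1 (adjusted p = 0.0720) or replicate 2 (0.0933), as was that of TNFRSF11B, which left 1 lower gene in each case, and LIF was lost without an intensity trend (0.0540). EPHB4, the receptor of ephrin B2, was at 37.6 ± 2.25 and 35.1 ± 2.43 CPM (limma adjusted p = 0.121), and passed with the replicate number as a block (adjusted p = 0.0265) or without DMSO replicate 3 (0.0322).

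Osteopontin itself was near the limit of detection. Of 9 genes for receptors of osteopontin or the RGD motif, 6 were listed and tested, with means of 12.9 to 2039 CPM. Of these 6, 5 were lower and 0 higher (median -0.41), where 25.9% of all tested genes were lower. The list was chosen with earlier results of these data known, so this count is no test of the set. Other lists leaned the same way. The mineral and phosphate list had 6 lower and 2 higher of 9 tested, and the RANK and TRAIL axis 4 lower and 1 higher of 6. ITGA4, ITGA8 and ITGA9 were not listed. ITGB1 fell from 2300, 2329 and 2357 CPM to 1749, 1717 and 1783 CPM (log2 difference -0.41, limma adjusted p = 8.22e-10). Its partners ITGAV and ITGA5 fell by 0.41 and 0.61, and the chains ITGB5 and ITGB3 by 0.31 and 0.48 on the log2 scale. The groups did not overlap in these 5 genes, which was also so for 60.1% of all tested genes. CD44, a further osteopontin receptor, was at 708.5 ± 17.4 and 692.6 ± 21.8 CPM (limma adjusted p = 0.333) and was called lower with quantile normalization (-0.14, adjusted p = 2.85e-04). ITGB3 and CD44 were named to complete the list after their values were seen.

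Osteocalcin needs gamma-carboxylation by GGCX with vitamin K, and its gene is a known vitamin D target. Of 11 genes of these cycles 8 were tested, 1 rose and 3 fell (median -0.096). GGCX went from 41.3 ± 1.99 to 35.9 ± 0.301 CPM (limma adjusted p = 6.85e-04; SD, n = 3) and VKORC1L1, which recycles vitamin K, fell by 0.23 on the log2 scale. FURIN, a protease that trims proproteins, fell by 0.54, and NQO1, a quinone reductase better known as an antioxidant gene, rose by 0.53. VDR, the vitamin D receptor, was at 0.58 to 1.03 CPM with a mean under 1 CPM, and CYP24A1 was not listed.

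Genes of the signals that steer osteoblasts went in both directions. Of 17 BMP pathway genes tested 4 rose and 5 fell (median -0.026). ID3, a target of BMP signaling, rose from 35, 33.8 and 36.9 CPM to 66.6, 64 and 61.3 CPM (log2 difference 0.84, SE 0.0414, limma adjusted p = 5.98e-11), and ID1 rose by 0.17. On the log2 scale the receptor BMPR1A fell by 0.19 and the inhibitor SMAD7 by 0.41. The count of lower genes was 3 without DMSO replicate 2, DMSO replicate 3 or AIL replicate 1. Of 20 WNT genes tested 7 fell, 1 rose and 12 did not pass (median -0.094). CTNNB1 (beta-catenin), the receptor FZD6, the ligand WNT5B and DKK3 fell by 0.18, 0.27, 0.28 and 0.21. Of 11 hormone and growth factor receptors tested 3 rose and 4 fell (median 0.065). TGFBR1, TGFBR2 and FGFR1 fell by 0.27, 0.26 and 0.28, and the leptin receptor LEPR rose by 0.27 on the log2 scale, while PTH1R, the receptor of parathyroid hormone, was not listed.

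**Figure D4:**
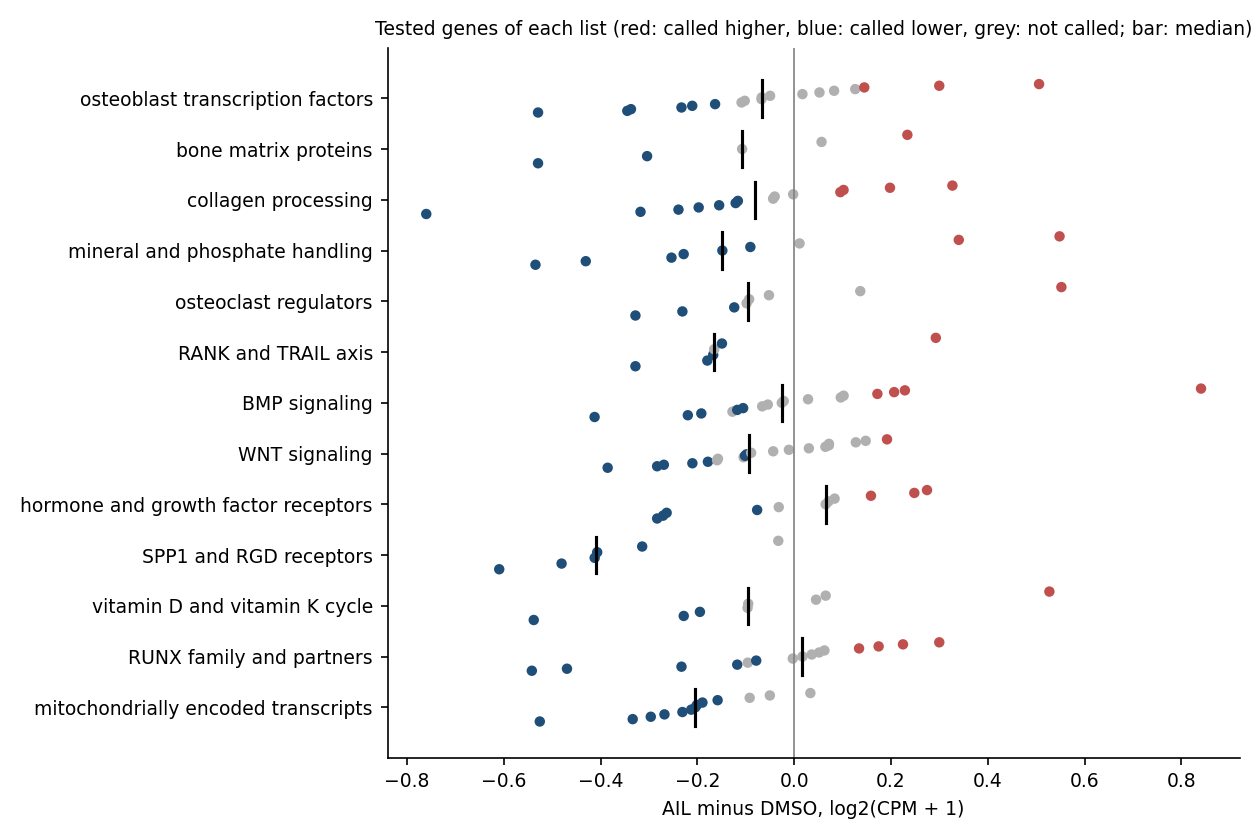
Log2 difference between AIL and DMSO (x axis, log2(CPM + 1)) of each tested gene, in rows by list. Red points were called higher, blue points lower and grey points not called at an adjusted p of 0.05, and the black bar is the list's median, lowest for the receptors of osteopontin and the RGD motif at -0.41.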

How the data were processed

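Total RNA of 6 libraries (3 AIL, 3 DMSO) was prepared with an Illumina TruSeq kit, per the labels' protocols. The authors deposited 1 table of TMM-normalized expression, printed to 2 decimals. Its values were read as CPM, since deposited low values are multiples of a step fixed per library and no library sums above the CPM total; no source states the unit. RSEM and edgeR 3.8.5 are named in the submitters' processing notes with no role. The sources used here do not give the aligner, build, annotation or strand use, so reads of overlapping or near-identical genes can be counted for either.

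Read equivalents are the deposited CPM divided by the step between low values. Of values up to 2000 reads, 99.9 to 100% were within 0.2 reads of a whole number, but the condition for a count test (95% within 0.1 reads) was missed, so the planned count test was not run. Differences were tested with limma 3.58.1 (R 4.3.3) on log2(CPM + 1) with an intensity trend, two-sided, over genes whose mean reached 1 CPM, with Benjamini-Hochberg adjustment and a threshold of 0.05. The pseudocount understates changes of low genes. The test was also tried on simulated counts in which far fewer genes changed than were called here. That trial therefore says little about its error rate in these data. Exact permutation tests used scipy 1.17.1.

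Members and lists were chosen with earlier results of these data known. Named were the 6 members, the 4 bone genes asked for, up to 4 genes of each list with the smallest p, PMF1, and the 2 genes most correlated with each tested member. Any other gene was named after its values were seen.

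Libraries of the same replicate number deviated together (r of 0.159, 0.133 and 0.129 over genes, group means removed). The numbers may therefore pair the samples, but this pairing comes from the data, not the labels. The main fit, its intervals and the permutation tests treated the libraries as unpaired. Only the replicate block used the pairing. Replicates of a group differed by 1.74 to 5.37 times the counting variance, so none looked like 1 library deposited a second time. Alternatives were other pseudocounts (0.1 and 5), no minimum or one of 5 CPM, other scalings, no trend, a replicate block and leaving out each library.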

Additional observations from a re-analysis of the deposited data

How the results depend on the processing

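Of the 6 members, TNFRSF11B stayed below 0 in each alternative that could test it, with differences of -0.50 and -0.13 at pseudocounts of 0.1 and 5, and of -0.42 to -0.28 when single libraries were left out (adjusted p from 0.00372 to 0.0704, past 0.05 without DMSO replicate 1 or 2). RUNX2 was not called in any, and its sign turned with quantile normalization (-0.025) and within the range of -0.022 to 0.054 over left-out libraries. At a pseudocount of 0.1 the differences were -0.29 for SPP1, 0.69 for BGLAP and -0.29 for PHEX, and at a pseudocount of 5 that of BGLAP was 0.021, as the log scale itself implies for values near 0. Over left-out libraries the differences ran from -0.0071 to 0.14 for MSX2, with a change of sign, from -0.10 to -0.033 for SPP1, from 0.049 to 0.13 for BGLAP and from -0.14 to -0.018 for PHEX. The minimum of 5 CPM left no member to test. Among named uncalled genes that are not members, signs turned for PMF1-BGLAP over left-out libraries (-0.18 to 0.055, positive without DMSO replicate 2), KIAA1549 with quantile normalization (-0.022) and over left-out libraries (-0.014 to 0.065), and ELF2 with quantile normalization (-0.00474), with median-of-ratios scaling (-0.000359) and over left-out libraries (-0.016 to 0.033); the cause was not tested.

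With the replicate number as a block, 3347 genes were higher and 3121 lower, against 3122 and 2869, and TNFRSF11B kept its call (adjusted p = 0.0112). Among named genes the block added EPHB4 and PARP12 (adjusted p = 0.0265 and 0.0300) and changed no other call. PARP12 also passed with either other scaling, with the 5 CPM minimum and without DMSO replicate 3. Of 48 called genes named beside the members, 45 kept their call in each alternative that tested them. LIF, CSF1 and TNFRSF10C lost it in at least 1 and kept their direction. Depth limits SPP1, BGLAP and PHEX, with 1 to 28 reads per group. The planned count test was not run, because whole reads were not recovered closely enough.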
